A study of Mus musculus with 30 samples.

Results

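The 43 genes described here are interferon-stimulated genes, measured by bulk RNA sequencing in a pair of mouse colon carcinoma models, CT-26 and Colon 26. They were listed by symbol among the known targets of interferon signaling, with no threshold on their values here. Earlier results of these data were known when the list was made. The list makes up 43 of the 53431 genes in the table. All 43 passed the filter on low counts in every comparison. CT-26 cells came from ATCC and Colon 26 cells from RIKEN and CoBioer, and both lines derive from BALB/c mice. Each line was sequenced as cultured cells (3 libraries a line) and as tumors that grew from cells implanted in the flank of female mice of that strain (4 libraries a line at each size). The nominal sizes were 100, 400 and 800 mm3, and the recorded volumes were 103.33 to 145.86, 400.47 to 464.68 and 810.36 to 938.57 mm3 for CT-26 and 102.9 to 124.88, 401.52 to 466.73 and 807.93 to 963.18 mm3 for Colon 26. The description of the animal work covers antibody dosing, but no library is labelled with an antibody, so the tumors are taken as untreated. The age of the mice is not given in the sources used here. Each model rests on 1 cell line, and a tumor library holds RNA of the implanted cells together with that of host immune and stromal cells.

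Interferons are secreted proteins that warn cells of virus or of a damaged neighbor. Type I interferons bind the receptor IFNAR, whose kinases JAK1 and TYK2 activate factors such as STAT2, which joins IRF9 to bind the interferon-stimulated response element (ISRE) near target genes. Interferon gamma, made mainly by T cells and NK cells, acts through its own receptor, and its targets often carry the gamma-activated site (GAS). The targets include proteins that detect foreign nucleic acid, block viral replication or attack microbes inside cells, and in tumors their level is widely used as a sign of interferon exposure.

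The total per library ran from 21384730 to 39722586 estimated counts. The labelled tissue was checked with 7 colon epithelial markers. Epcam was at 0 counts in every culture of both lines, and Krt18 stood at 15.7 CPM (counts scaled to the size of the library) in CT-26 cultures while it was at or under 3 counts per library in Colon 26 cultures. Krt20 averaged 24.7 CPM over the CT-26 cultures against 5.68 CPM over those of Colon 26, and Cdx2 went the other way, at 0.152 CPM and 6.22 CPM. Krt8, Cdh1 and Vil1 reached at most 0.523 CPM in any culture, so the colon epithelial identity of the lines is only partly visible in their RNA. Levels below are CPM scaled by TMM over all 30 libraries, given in the order of the replicate numbers, which name the libraries and carry no rank. Log2 fold changes and their standard errors (SE) come from edgeR quasi-likelihood fits of only the libraries compared. A gene was called when its adjusted p was at most 0.1 and its fold change at least 1 on the log2 scale. P-values measure the spread between these libraries, and nothing in the labels says that the cultures were grown separately, so that spread may be technical for them.

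As tumors, the models differed in most of these genes, and members stood lower in Colon 26 than in CT-26 tumors at every size. In tumors of 100 mm3, 36 of the 43 members were called lower in Colon 26 and 0 higher, where 7.06% of all genes tested were called lower and 6.17% higher. Their median log2 fold change was -2.04, against -0.00 for all genes tested. In tumors of 400 mm3, 37 members were called lower and 0 higher, beside 7.79% and 6.48% of all genes, with a median of -2.02 against 0.03. In tumors of 800 mm3, 24 members were called lower and 0 higher, beside 7.62% and 6.5% of all genes, with a median of -1.34 against -0.01. All 43 fitted fold changes were below 0 at each size, those of the members not called included. The 4 Colon 26 tumors all lay below the 4 CT-26 tumors for 37, 42 and 23 of the 43 members at 100, 400 and 800 mm3, beside 25.3%, 22.2% and 24.7% of all genes tested. The 24 members called at 800 mm3 were called at all 3 sizes, and 6 were called at no size (Trim25, Ifi35, Eif2ak2, Irf9, Parp9 and Dtx3l). With 1 library left out in turn, the counts ran from 32 to 41, 34 to 38 and 23 to 29.

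**Figure D1:**
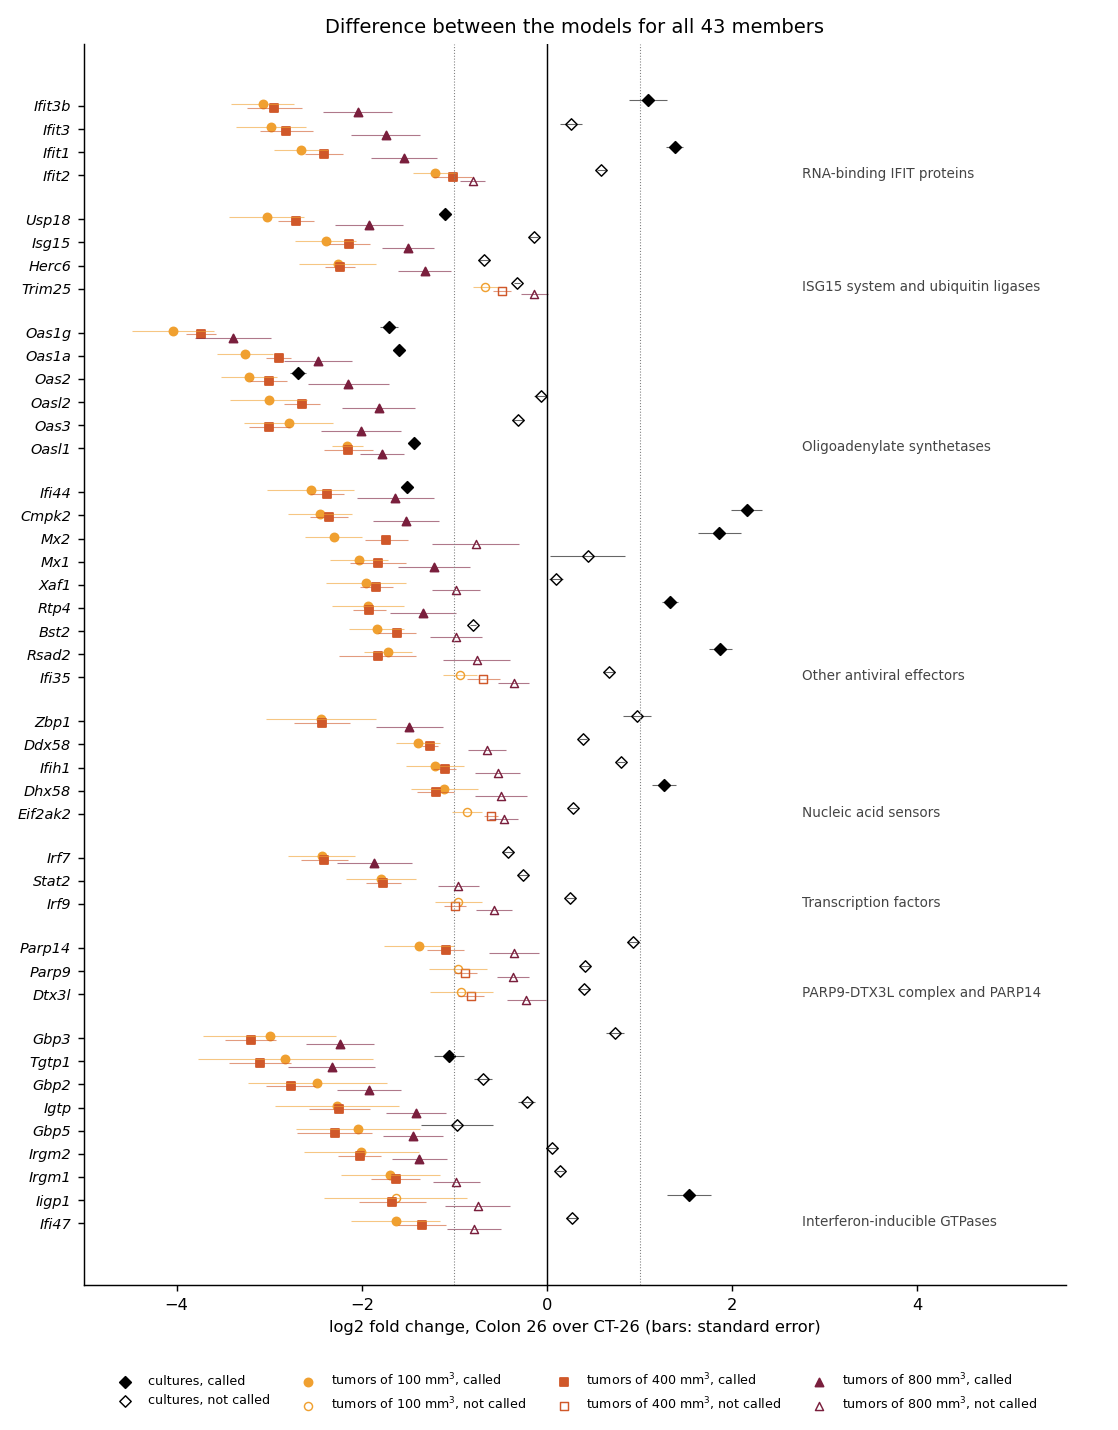
Log2 fold change of Colon 26 over CT-26 (x axis) for each of the 43 members, grouped by role (y axis), with bars for the standard error. Diamonds are cultures, circles, squares and triangles tumors of 100, 400 and 800 mm3, and filled symbols are called. All values for tumors lie below 0, while the cultures lie on both sides.

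The RNA-binding IFIT proteins, which capture viral RNA and are among the genes that type I interferon raises most, sit in 1 cluster on chromosome 19, chr19:34550694-34650009 (GRCm38). Ifit1 stood at 5.59, 4.96 and 6.25 CPM in CT-26 cultures and at 15.8, 13.8 and 14.9 CPM in Colon 26 cultures. Ifit1 in tumors of 100 mm3 reached 58.5, 99.3, 40.3 and 45.4 CPM in CT-26 and 7.58, 10.6, 11.9 and 8.64 CPM in Colon 26. The model with more Ifit1 in culture thus had less of it in the tumor, and the groups did not overlap in either setting. The fold change was 1.38 ± 0.09 (SE) in cultures and -2.65 ± 0.29 in tumors of 100 mm3 (adjusted p 0.000106). Ifit1 at 400 mm3 was 40.6, 62.4, 38.9 and 35.4 CPM in CT-26 and 7.26, 9.699, 6.696 and 9.68 CPM in Colon 26, and at 800 mm3 41.4, 26.3, 19 and 17.1 CPM and 4.06, 8.88, 12.4 and 10.5 CPM. The models were again apart at both sizes.

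Ifit3, a partner of Ifit1 in RNA binding, stood at 3.29, 3.69 and 3.99 CPM in CT-26 cultures and 4.29, 4.39 and 4.805 CPM in Colon 26 cultures. Ifit3 at 100 mm3 was 90.1, 157, 62.9 and 63.7 CPM in CT-26 and 7.61, 14.7, 16.9 and 8.04 CPM in Colon 26, with a fold change of -2.98 ± 0.38. Ifit3 at 400 mm3 was 61.9, 112, 47.9 and 53.2 CPM against 9.46, 11.2, 7.16 and 10.98 CPM, and at 800 mm3 64.9, 39.5, 27.5 and 24.3 CPM against 5.22, 13.2, 16.1 and 12.4 CPM. Every CT-26 tumor was above every Colon 26 tumor of its size. Of the 4 IFIT members, all were called lower at 100 and 400 mm3 and 3 at 800 mm3, where Ifit2 fell short of the fold required (-0.80 ± 0.13). Ifit3 and Ifit3b share sequence (31.7% and 27.4% of their words of 100 bases), so reads may have been divided between them.

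Isg15 encodes a ubiquitin-like protein that is joined to other proteins, and Usp18 the protease that removes it and also restrains the type I interferon receptor. Isg15 in culture was 29.2, 29.2 and 31.4 CPM in CT-26 and 27.7, 27.2 and 28.4 CPM in Colon 26, with no overlap but a fold change of only -0.14 ± 0.05. Isg15 at 100 mm3 was 121, 169, 72.3 and 80.3 CPM in CT-26 and 13.98, 27.9, 26.7 and 15.7 CPM in Colon 26. The fold change of -2.39 ± 0.33 (adjusted p 0.000378) came with no overlap of the groups. Isg15 at 400 mm3 was 75.6, 104, 64.03 and 59.2 CPM against 19.98, 17.9, 11.8 and 18.9 CPM, and at 800 mm3 79.1, 51.4, 44.8 and 37.4 CPM against 10.5, 22.4, 24.3 and 18.6 CPM.

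Usp18 was already lower in Colon 26 cultures, at 11.3, 9.35 and 11.2 CPM against 21.4, 22.8 and 22.4 CPM. Usp18 at 100 mm3 was 83.9, 131, 50.3 and 61.95 CPM in CT-26 and 5.68, 14.9, 13.01 and 6.22 CPM in Colon 26, a fold change of -3.03 ± 0.41. Usp18 at 400 mm3 was 67.2, 79.1, 55.1 and 44.9 CPM against 8.12, 10.9, 7.92 and 10.6 CPM, and at 800 mm3 59.3, 38.98, 30.3 and 24.6 CPM against 3.998, 10.3, 14.2 and 12.2 CPM. No Colon 26 tumor reached the lowest CT-26 tumor of its size. Isg15, Usp18 and the ISG15 ligase Herc6 were called at all 3 sizes, while the ubiquitin ligase Trim25, which acts on RIG-I, was not called (-0.67 ± 0.13 at 100 mm3).

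The oligoadenylate synthetases sense double-stranded RNA and make oligoadenylates that switch on the nuclease RNase L. All 6 were called lower in Colon 26 tumors at every size, with group medians of -3.11, -2.95 and -2.08, and 4 of them (Oas1a, Oas1g, Oas2 and Oasl1) were called lower in Colon 26 cultures too. Oas2 (chr5:120730333-120749853) stood at 27.7, 24.3 and 26.1 CPM in CT-26 cultures and 3.64, 4.49 and 4.19 CPM in Colon 26 cultures. Oas2 at 100 mm3 was 151, 207, 102 and 134 CPM in CT-26 and 11.3, 21.2, 20.5 and 10.5 CPM in Colon 26. The fold change was -2.69 ± 0.09 in cultures and -3.22 ± 0.30 in these tumors, without overlap in either, and the change between the settings (-0.52 ± 0.39) was not called. Oas2 at 400 mm3 was 93.1, 124, 76.7 and 76.6 CPM against 13.3, 9.81, 9.399 and 13.2 CPM, and at 800 mm3 133, 56.2, 48.7 and 31.9 CPM against 7.58, 16.7, 19.6 and 17.6 CPM.

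Oasl1, a relative without enzyme activity that holds back Irf7 translation in mice, stood at 38.9, 42.8 and 44.02 CPM in CT-26 and 16.9, 15.5 and 15.2 CPM in Colon 26 cultures. Oasl1 at 100 mm3 was 77.5, 79.2, 45.9 and 61.95 CPM in CT-26 and 14.1, 15.3, 16.6 and 13.4 CPM in Colon 26. Oasl1 at 400 mm3 was 52.5, 67.5, 41.8 and 38.9 CPM against 15.5, 9.39, 7.46 and 12.7 CPM, and at 800 mm3 59, 37.8, 37.4 and 31.9 CPM against 8.54, 16.5, 12.9 and 10.6 CPM. The models were apart in all 4 settings. The largest fold changes of all members in tumors were those of Oas1g, with 50.3, 64.6, 32.8 and 38.6 CPM in CT-26 and 1.11, 4.22, 4.36 and 1.49 CPM in Colon 26 at 100 mm3 (-4.04 ± 0.44). Oas1g at 400 mm3 was 31.5, 32.8, 23.4 and 27.1 CPM against 1.68, 2.51, 1.97 and 2.44 CPM (-3.74 ± 0.17), and at 800 mm3 45.03, 23.4, 19.1 and 13 CPM against 1.19, 2.596, 3.08 and 2.78 CPM (-3.39 ± 0.41). Oas1a was 106, 137, 61.2 and 74.02 CPM in CT-26 and 6.92, 13.9, 10.2 and 8.12 CPM in Colon 26 at 100 mm3 (-3.26 ± 0.31), and 91.4, 49.3, 35.6 and 26.6 CPM against 6.29, 8.41, 11.2 and 11.04 CPM at 800 mm3 (-2.47 ± 0.37). Oas1a and Oas1g share 40.9% and 31.2% of their words of 100 bases, so their separate levels are uncertain.

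Among the other antiviral effectors, 8 of 9 were called lower at 100 and 400 mm3 and 4 at 800 mm3. Mx1, a gene of the GTPase type, was barely present in culture, at 0.315, 0.187 and 0.493 CPM in CT-26 and 0.621, 0.328 and 0.437 CPM in Colon 26. Mx1 at 100 mm3 was 25.6, 48.5, 23.4 and 25.3 CPM in CT-26 and 4.57, 8.96, 10.4 and 6.14 CPM in Colon 26, a fold change of -2.03 ± 0.31. Mx1 at 400 mm3 was 19.7, 32.3, 14.8 and 23.6 CPM against 7.92, 4.29, 4.82 and 8.22 CPM, and at 800 mm3 26.9, 13.5, 11.3 and 9.91 CPM against 3.16, 6.29, 10.5 and 6.66 CPM. The models overlapped at 800 mm3, and that call (-1.22 ± 0.39) was lost without CT-26 tumor 800 replicate 1 or Colon 26 tumor 800 replicate 1.

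Rsad2 encodes viperin, which makes a chain-ending nucleotide, and lies beside Cmpk2 on chromosome 12. Rsad2 stood at 1.85, 2.09 and 2.47 CPM in CT-26 cultures and 8.27, 8.396 and 7.45 CPM in Colon 26 cultures. Rsad2 at 100 mm3 was 35.5, 54.4, 22.3 and 39.02 CPM in CT-26 and 8.26, 12.8, 13.4 and 11.4 CPM in Colon 26 (-1.72 ± 0.26). The order of the models was thus opposite in culture (1.87 ± 0.12) and in tumors. Rsad2 at 400 mm3 was 22.6, 75.96, 22.8 and 24.04 CPM against 9.37, 11.1, 7.71 and 12.6 CPM, and at 800 mm3 34.6, 14.8, 14.5 and 12.01 CPM against 6.16, 13.5, 14.8 and 10.6 CPM. The models overlapped at 800 mm3, where Rsad2 was not called.

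Bst2 encodes tetherin, which holds new virus particles on the cell surface. On the per-length scale of FPKM it had the highest mean level of the 43 members in all 8 groups, 171.0 ± 2.94 (SD, n = 3) in CT-26 cultures and 539.7 ± 169.8 (SD, n = 4) in CT-26 tumors of 100 mm3. Bst2 in culture was 131, 138 and 136 CPM in CT-26 and 79.1, 79.3 and 79.8 CPM in Colon 26. Bst2 at 100 mm3 was 528, 579, 298 and 319 CPM in CT-26 and 82.5, 162, 148 and 88.5 CPM in Colon 26 (-1.84 ± 0.30). The groups did not overlap in either setting. Bst2 at 400 mm3 was 330.3, 452, 259 and 221 CPM against 118, 99.7, 97.3 and 93.2 CPM, and at 800 mm3 370.1, 274, 184 and 129.6 CPM against 92.9, 129.6, 132 and 136 CPM, with overlap at the largest size.

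Of the 5 nucleic acid sensors, 4 were called lower at 100 and 400 mm3 and 1, Zbp1, at 800 mm3. Zbp1, a sensor of left-handed nucleic acid that can start necroptosis, stood at 1.94, 1.87 and 2.42 CPM in CT-26 cultures and 4.18, 4.01 and 4.34 CPM in Colon 26 cultures. Zbp1 at 100 mm3 was 186, 342, 101 and 89.6 CPM in CT-26 and 10.8, 51.2, 50.2 and 19.7 CPM in Colon 26 (-2.44 ± 0.59). Again the line with more in culture had less in the tumor. Zbp1 at 400 mm3 was 109.5, 205, 108 and 107 CPM against 36.4, 17.04, 20.4 and 23.4 CPM, and at 800 mm3 123, 98.3, 58.6 and 37.2 CPM against 16.7, 27.6, 39.7 and 29.7 CPM. Ddx58 encodes RIG-I, the sensor of uncapped RNA ends, and stood at 32.8, 33.7 and 35.8 CPM in CT-26 and 46.5, 46.3 and 44.8 CPM in Colon 26 cultures. Ddx58 at 100 mm3 was 81.9, 131, 66.2 and 71.1 CPM in CT-26 and 24.1, 37.6, 41.5 and 30.01 CPM in Colon 26 (-1.39 ± 0.24). Those groups did not overlap. Ddx58 at 400 mm3 was 79.8, 91.04, 71.8 and 73.8 CPM against 33.8, 31.7, 32.3 and 33.3 CPM, and at 800 mm3 84.2, 60.4, 51.9 and 41.99 CPM against 30.01, 37.6, 47.4 and 38.03 CPM. Eif2ak2 (the kinase PKR, which stops translation) had -0.86 ± 0.16 at 100 mm3 and was not called.

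Irf7 drives further interferon production and Stat2 carries the type I signal. Irf7 stood at 18.4, 17.7 and 18.8 CPM in CT-26 cultures and 14.6, 14.3 and 13.1 CPM in Colon 26 cultures. Irf7 at 100 mm3 was 269, 405, 185 and 212 CPM in CT-26 and 28.2, 67.4, 68.6 and 33.3 CPM in Colon 26 (-2.44 ± 0.36). Irf7 was apart between the models in culture and at every tumor size. Irf7 at 400 mm3 was 164, 284, 132 and 155 CPM against 39.7, 34, 25.5 and 38.8 CPM, and at 800 mm3 254, 137, 94.5 and 59.9 CPM against 21.5, 43.5, 44.1 and 41.98 CPM. Stat2 in culture was 30.7, 30.6 and 29.6 CPM in CT-26 and 25.1, 27.5 and 25.2 CPM in Colon 26. Stat2 followed Irf7 with a smaller difference in tumors and, unlike Irf7, was not called at 800 mm3. Stat2 at 100 mm3 was 141, 271, 110.2 and 95.3 CPM in CT-26 and 28.4, 60.5, 57.4 and 31.99 CPM in Colon 26 (-1.79 ± 0.38). Stat2 at 400 mm3 was 124, 197, 115 and 119 CPM against 46.8, 35.4, 37.1 and 42.3 CPM, and at 800 mm3 125, 96.2, 71.5 and 57.3 CPM against 35.4, 45.4, 54.1 and 46.9 CPM. Irf9, which binds DNA together with STAT2, was not called at any size (-0.96 ± 0.25 at 100 mm3). Exons of Irf7 and of Irf9 overlap those of Phrf1 and Rnf31 in the annotation, and how the counting treated strand is not given in the sources used here.

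Parp9 and Dtx3l form a complex that modifies histones and ubiquitin, and Parp14 adds single ADP-ribose units to proteins. Parp14 stood at 11.04, 12.5 and 10.7 CPM in CT-26 cultures and 24.1, 20.6 and 22.3 CPM in Colon 26 cultures. Parp14 at 100 mm3 was 146, 293, 120.1 and 107 CPM in CT-26 and 35.3, 85.7, 80.5 and 52.95 CPM in Colon 26 (-1.38 ± 0.38, not called without CT-26 tumor 100 replicate 2). By group median, the 3 genes had the smallest difference between the models at each size (-0.96, -0.88 and -0.36). Parp14 at 400 mm3 was 110.1, 179, 94.6 and 128 CPM against 70.0, 48.4, 57.9 and 61.98 CPM, and at 800 mm3 129, 99.4, 72.6 and 55.4 CPM against 45.6, 72.8, 92.5 and 69.2 CPM. Parp9 and Dtx3l had -0.96 ± 0.31 and -0.92 ± 0.34 at 100 mm3 and were not called, and their exons overlap on opposite strands.

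The interferon-inducible GTPases (guanylate-binding proteins and the IRG family) coat and break the vacuoles that hold microbes inside cells, and many answer to interferon gamma. At 100, 400 and 800 mm3, 8, 9 and 6 of the 9 were called lower. Gbp2 (chr3:142620602-142638008) stood at 8.79, 7.95 and 8.59 CPM in CT-26 cultures and 5.195, 4.99 and 5.81 CPM in Colon 26 cultures. Gbp2 at 100 mm3 was 609, 1236, 394 and 200.5 CPM in CT-26 and 21.4, 183, 175 and 55.1 CPM in Colon 26 (-2.48 ± 0.75). The tumors of a group were far apart from each other, yet the models did not overlap. Gbp2 at 400 mm3 was 378, 830.3, 442 and 452 CPM against 89.2, 59.1, 86.8 and 71.5 CPM, and at 800 mm3 335, 419, 257 and 152 CPM against 41.4, 70.4, 116 and 81.7 CPM. On the FPKM scale Gbp2 ranked second after Bst2 in all 6 tumor groups, while it ranked 27 in CT-26 cultures and 35 in Colon 26 cultures.

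Iigp1, an IRG protein, stood at 0.586, 0.523 and 0.781 CPM in CT-26 cultures and 1.72, 1.97 and 1.901 CPM in Colon 26 cultures. Iigp1 at 100 mm3 was 311, 628, 212 and 114 CPM in CT-26 and 14.1, 188, 156 and 46.4 CPM in Colon 26. These groups overlapped, and Iigp1 was the GTPase not called at this size (-1.64 ± 0.77, adjusted p 0.111). Iigp1 at 400 mm3 was 185, 403, 177 and 259.9 CPM against 125, 46.2, 84.7 and 62.4 CPM, and at 800 mm3 163, 195, 109.8 and 78.9 CPM against 40.3, 70.4, 129 and 87.4 CPM. Irgm1, which regulates the other IRG proteins and protects host membranes, stood at 28.2, 32.03 and 32.5 CPM in CT-26 and 35.97, 33.7 and 35.3 CPM in Colon 26 cultures. The fold change in culture was 0.14 ± 0.05, under the fold required. Irgm1 at 100 mm3 was 237, 388, 153 and 104 CPM in CT-26 and 25.5, 107, 99.3 and 40.2 CPM in Colon 26 (-1.69 ± 0.53). Irgm1 at 400 mm3 was 131, 275, 133 and 177 CPM against 75.7, 44.6, 54.2 and 53.9 CPM, and at 800 mm3 122, 142, 84.3 and 73.1 CPM against 32.8, 52.8, 71.1 and 58.2 CPM. Gbp3 and Tgtp1 had the largest changes after Oas1g at 400 mm3, with Gbp3 at 219, 462, 223 and 244 CPM in CT-26 and 37.4, 25.04, 32.7 and 28.9 CPM in Colon 26 (-3.20 ± 0.27). Tgtp1 at 400 mm3 was 113, 260.4, 115 and 123 CPM against 22.4, 12.3, 20.3 and 15.6 CPM (-3.10 ± 0.33), and at 800 mm3 99.7, 132, 60.03 and 40.6 CPM against 5.54, 13.99, 27.3 and 19.9 CPM (-2.33 ± 0.47). Tgtp1 shares 73.1% of its words of 100 bases with other genes, chiefly its copy Tgtp2, so its level is uncertain.

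**Figure D2:**
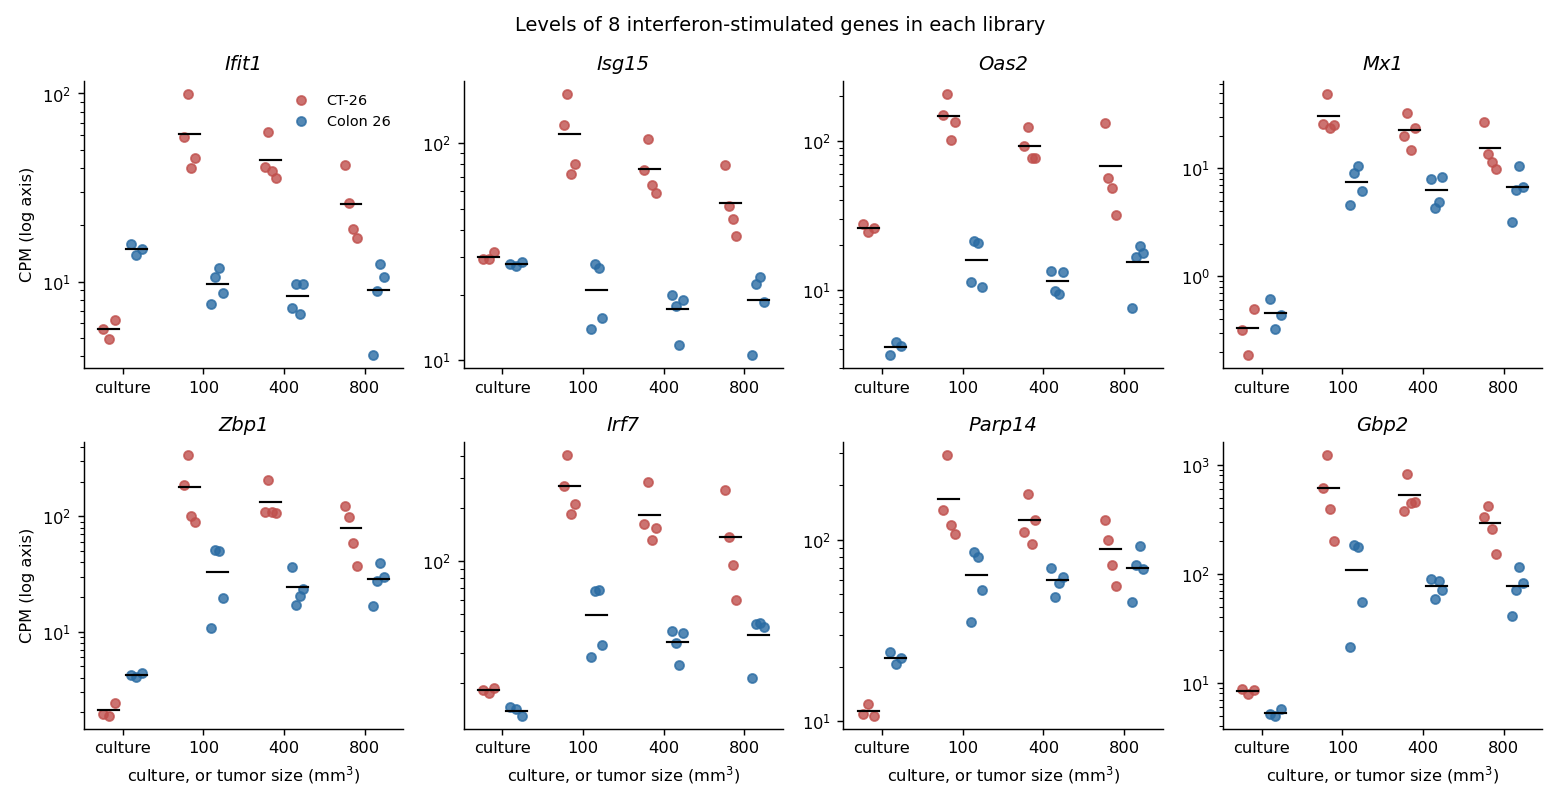
CPM on a log axis (y) in each of the 30 libraries for 8 members, by culture and by tumor size (x), with CT-26 and Colon 26 in separate colors, points for libraries and bars for the arithmetic mean. Ifit1 is higher in Colon 26 than in CT-26 cultures and lower in Colon 26 tumors of all 3 sizes, without overlap.

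The promoters of members show which of the response elements named above stand near their start sites, and 6 are printed because they belong to members whose levels were described or to GTPases that share an arrangement of elements. RefSeq promoters (GRCm38.p6, from 250 bases before to 50 after the start) were found for 33 of the 43 members. Searched on both strands, the ISRE core GAAANNGAAA was in 20 of these 33 genes (60.6%) and in 3.99% of 27025 genes, and the GAS core TTCNNNGAA in 9 of 33 (27.3%) and in 9.55% of all genes. By promoter, the shares over all 32851 were 3.44% and 8.30%. The motifs may overlap, and a match is a string of letters, not a bound site. An ISRE core was in 7 of 8 GTPase promoters, 3 of 4 of the IFIT proteins and 3 of 5 of the synthetases, and a GAS core in 4 of 8, 1 of 4 and 1 of 5. Capitals mark ISRE and GAS cores in the 110 bases before each start, printed along the strand of the gene.
Isg15, chr4:156200819-156200928, minus strand: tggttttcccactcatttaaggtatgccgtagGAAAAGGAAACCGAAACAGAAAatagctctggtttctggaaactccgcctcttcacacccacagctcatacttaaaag
Ifit1, chr19:34640779-34640888, plus strand: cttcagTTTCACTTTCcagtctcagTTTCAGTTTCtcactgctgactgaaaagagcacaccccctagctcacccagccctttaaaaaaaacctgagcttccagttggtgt
Gbp2, chr3:142620553-142620662, plus strand: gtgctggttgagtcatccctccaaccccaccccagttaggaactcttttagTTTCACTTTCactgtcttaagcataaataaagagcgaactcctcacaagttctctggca
Igtp, chr11:58199446-58199555, plus strand: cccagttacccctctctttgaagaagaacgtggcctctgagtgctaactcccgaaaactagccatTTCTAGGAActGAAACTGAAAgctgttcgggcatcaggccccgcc
Irgm2, chr11:58214867-58214976, plus strand: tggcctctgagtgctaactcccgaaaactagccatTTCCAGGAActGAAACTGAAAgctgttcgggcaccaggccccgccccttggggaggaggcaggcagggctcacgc
Tgtp1, chr11:48992247-48992356, minus strand: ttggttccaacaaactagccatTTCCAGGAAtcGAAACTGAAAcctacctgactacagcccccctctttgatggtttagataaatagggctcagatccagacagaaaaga
In Isg15, overlapping cores began 78, 72 and 66 bases before the start, and Ifit1 had 2 separate cores, 104 and 85 bases before it. Gbp2 had 1 core, 59 bases before the start. In Igtp, Irgm2 and Tgtp1 a GAS core was followed by an ISRE core that began 11 bases later. That spacing, chosen after these sequences were seen, was in 5 of 32851 promoters (0.0152%), those of Igtp, Irgm2, Tgtp1, Tgtp2 and Gm12185, which include close copies of each other.

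In culture the members did not move as a block. Colon 26 cultures had 8 members called higher and 7 lower, where 10.6% of all genes were called higher and 12.3% lower, and the median log2 fold change was 0.25 against 0.01 for all genes. The 8 called higher were Ifit1, Ifit3b, Mx2, Rsad2, Cmpk2, Rtp4, Dhx58 and Iigp1. The 7 called lower were Usp18, Oas1a, Oas1g, Oas2, Oasl1, Ifi44 and Tgtp1. The calls for Iigp1 and Tgtp1 were lost in the fit of all 30 libraries. Without the filter on low counts Tgtp1 lost its call and Zbp1 gained one. Of those called higher, Cmpk2, a mitochondrial nucleotide kinase, changed most, from 0.811, 0.933 and 1.15 CPM in CT-26 to 4.602, 4.39 and 4.29 CPM in Colon 26 (2.15 ± 0.17). Mx2, an antiviral GTPase annotated as a polymorphic pseudogene, stood at 0.811, 1.01 and 0.452 CPM and 2.54, 3.03 and 2.96 CPM (1.86 ± 0.23). In the other direction, Oas2 changed most (-2.69 ± 0.09, values above), and Oas1g stood at 16.9, 16.5 and 14.6 CPM in CT-26 and 4.29, 5.37 and 5.32 CPM in Colon 26 (-1.71 ± 0.09). Oas1a stood at 44.2, 46.4 and 43.7 CPM and 14.96, 14.9 and 15.6 CPM (-1.60 ± 0.04). None of these groups overlapped. By role, 2 of 4 IFIT genes, 4 of 9 other effectors and 1 of 5 sensors were called higher and 4 of 6 synthetases lower. The spread between cultures was small, so 39 of the 43 members had an adjusted p of at most 0.1 whatever their fold change, as had 82.6% of all genes. The Colon 26 cultures carry library numbers from another series than the CT-26 cultures and are deeper (36042940 to 39722586 against 21384730 to 27856380 estimated counts), so library number series, depth and model cannot be told apart in culture.

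Most members were higher in CT-26 tumors than in CT-26 cultures, and fewer were called in Colon 26. In CT-26, 40 of the 43 members were called higher in tumors of 100 mm3 than in culture, beside 22.2% of all genes, with a median of 2.83 against 0.06. In Colon 26, 21 were called higher, beside 20.8% of all genes, with a median of 0.87 against 0.05. A tumor library also holds host cells, and in such bulk tissue fewer cells of a type and less RNA per cell cannot be told apart. In each line the cultures carry library numbers apart from those of its tumors. Number series and setting therefore cannot be told apart here. The Colon 26 cultures were also deeper than these tumors (36042940 to 39722586 against 23597147 to 35677357 estimated counts). The 3 members not called in CT-26 were Trim25, Oasl1 and Eif2ak2. Iigp1 rose most in CT-26 (8.96 ± 0.82, values above). Gbp5 rose from 0.541, 0.336 and 0.411 CPM in CT-26 cultures to 75.1, 168, 61.4 and 28.3 CPM in the tumors (7.60 ± 0.84), and Mx1 had 6.52 ± 0.44. In Colon 26, Gbp5 rose from 0.198, 0.176 and 0.283 CPM to 4.702, 32.3, 31.8 and 11.5 CPM (6.58 ± 0.89), followed by Iigp1 (5.84 ± 0.98) and Gbp2 (4.44 ± 0.77). Gbp5, Mx1 and, in CT-26, Iigp1 rest on few counts in culture, so the size of these rises is imprecise.

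All 9 GTPases were called higher in tumors of both models, with medians of 5.54 in CT-26 and 2.78 in Colon 26. In Colon 26 the tumors and cultures overlapped for Irgm1, Irgm2 and Tgtp1, and the call for Irgm1 (1.05 ± 0.45, adjusted p 0.0600) was lost with DESeq2. Of the other 34 members, 31 were called higher in CT-26 (median 2.46) and 12 in Colon 26 (median 0.59). This division by role was read from the data and was not tested. Some members had no positive fold change in Colon 26. Ifit1 had -0.54 ± 0.14 (adjusted p 0.00755), below the fold required, with all 4 tumors under all 3 cultures. Isg15 had -0.31 ± 0.23 and Usp18 -0.00 ± 0.32. Without a minimum fold, 27 members were higher and 6 lower in Colon 26 tumors (78.9% of all genes passed that looser rule in either direction).

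**Figure D3:**
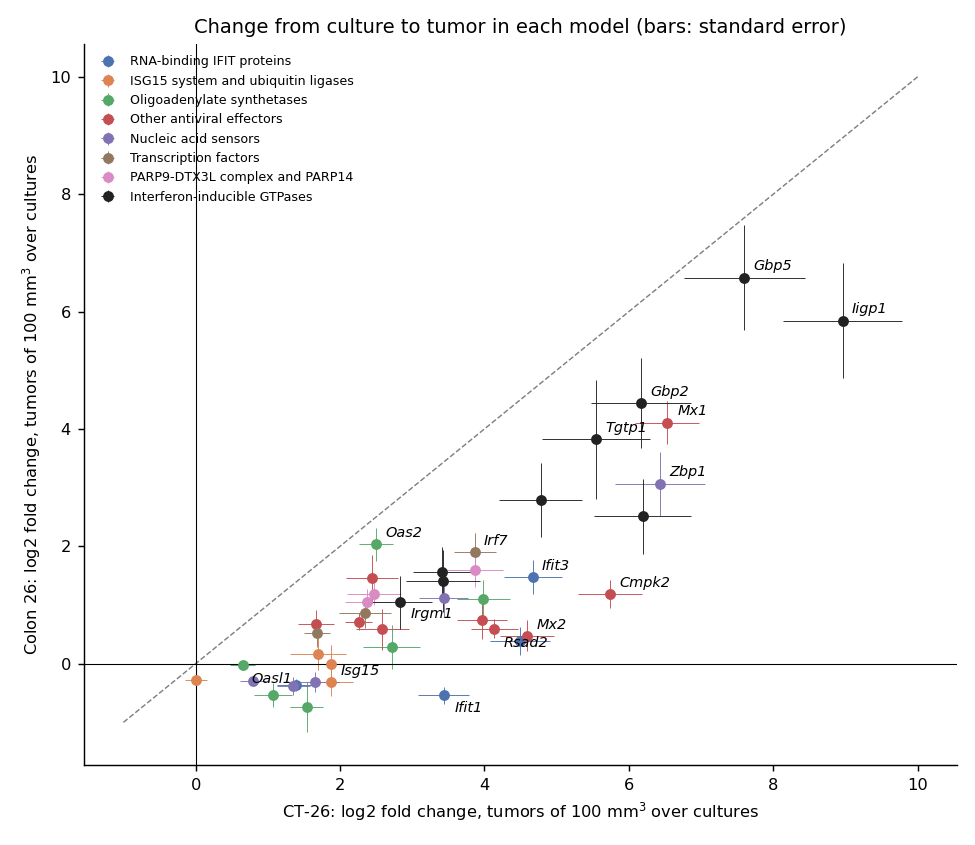
Log2 fold change of tumors of 100 mm3 over cultures in CT-26 (x axis) and Colon 26 (y axis) for the 43 members, with bars for the standard error and colors by role. The 9 GTPases lie at or above 1.05 in Colon 26, while Ifit1, Isg15 and Usp18 lie at or below 0 there and between 1.88 and 3.44 in CT-26.

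The change of the model difference from culture to tumor was tested as an interaction. In 35 of the 43 members it was called below 0, beside 9.31% of all genes, with a median of -2.01 against -0.02. The largest were Cmpk2 (-4.60 ± 0.51), Mx2 (-4.16 ± 0.48) and Ifit3b (-4.16 ± 0.48). Cmpk2 at 100 mm3 was 51.4, 85.9, 32.4 and 38.7 CPM in CT-26 and 6.21, 12.7, 11.1 and 7.88 CPM in Colon 26. Mx2 at 100 mm3 was 18.5, 27.6, 12.8 and 14.96 CPM and 2.35, 5.005, 4.62 and 2.91 CPM. Both were higher in Colon 26 cultures and lower in Colon 26 tumors, without overlap. Ifit3b stood at 1.58, 0.933 and 1.19 CPM in CT-26 and 2.71, 2.799 and 2.52 CPM in Colon 26 cultures. Ifit3b at 100 mm3 was 25.4, 46.1, 19.1 and 20.5 CPM in CT-26 and 2.48, 4.22, 4.14 and 2.302 CPM in Colon 26. In all, 7 members (Cmpk2, Dhx58, Ifit1, Ifit3b, Mx2, Rsad2 and Rtp4) were called higher in Colon 26 cultures and lower in its tumors of 100 mm3, and 7 (Ifi44, Oas1a, Oas1g, Oas2, Oasl1, Tgtp1 and Usp18) were called lower in both. Of all genes tested in both comparisons, 0.319% and 3.85% were called in these ways. The interaction was not called for Trim25, Oas2, Oasl1, Ifi44, Gbp2, Gbp5, Iigp1 and Tgtp1. The library number series of the cultures enters this contrast too, and leaving out 1 library gave 31 to 37 members.

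As CT-26 tumors grew from 100 to 800 mm3, all 43 fitted fold changes were below 0, but none was called. The median was -0.98 against -0.00 for all genes, of which 0% were called. How many of all genes fell under an unadjusted p of 0.05 was not counted, so the numbers of members under it have no background share. Ifit2, for example, had an unadjusted p of 0.0455 and an adjusted p of 0.4655 by edgeR. By edgeR's unadjusted p, 33 members were under 0.05, and their number moved widely with single libraries. It was 8 without CT-26 tumor 100 replicate 2, 20 without CT-26 tumor 100 replicate 1, and 9 and 13 without replicates 3 and 4 at 800 mm3. It was 40 and 43 without replicates 3 and 4 at 100 mm3, and 38 and 23 without replicates 1 and 2 at 800 mm3. DESeq2 called 1 member lower (Ifit3b, beside 0.114% of all genes). A fit of all 30 libraries called 10 lower (Ifit1, Ifit3, Ifit3b, Isg15, Usp18, Oas2, Oas3, Oasl2, Mx2 and Cmpk2, beside 0.239% of all genes). In Colon 26 tumors the median was -0.12 against -0.00, with 0 members called by edgeR, beside 1.33% of all genes, and 0 by DESeq2. Under an unadjusted p of 0.05 by edgeR there were 0 members, with no count over all genes. The difference between these growth effects was called for 0 members, beside 0.0308% of all genes. Its median was 0.78 against -0.00, and no member was called by DESeq2. By unadjusted p, 4 members were under 0.05 by edgeR (0 to 23 with 1 library left out) and 7 by DESeq2, again without a count over all genes. Ifit3, with an unadjusted p of 0.0472 by edgeR, had an adjusted p of 0.392. Without CT-26 tumor 800 replicate 1 the unadjusted number was 23 and 1 member was called, Mx2, where 0.774% of all genes were called. A different growth effect in the models is therefore not shown. At 800 mm3 the model difference was nonetheless smaller in its median, and without a minimum fold 37 members were lower in Colon 26 there, beside 31% of all genes.

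In 5 of the 6 tumor groups, 1 tumor was highest or lowest for most members. CT-26 tumor 100 replicate 2 had the highest level of all 43 members, and their summed level was 10270.0 CPM against 3552.0 to 6141.0 CPM in the other 3 tumors. CT-26 tumor 400 replicate 2 was highest for 42 members, and CT-26 tumor 800 replicate 4 lowest for 42. Colon 26 tumor 100 replicate 1 was lowest for 39, Colon 26 tumor 800 replicate 1 lowest for all 43 and replicate 3 at that size highest for 39. In cultures the summed level was 914.8 to 958.3 CPM in CT-26 and 826.3 to 859.5 CPM in Colon 26, and no culture was highest for more than 22 members. In Colon 26 tumors of 400 mm3 the most frequent leader, replicate 1, was highest for 21 members and lowest for 8. Members share a library, so such joint shifts are not separate observations. Without CT-26 tumor 100 replicate 2, 32 members were called lower at 100 mm3 rather than 36, and without Colon 26 tumor 100 replicate 1, 35.

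**Figure D4:**
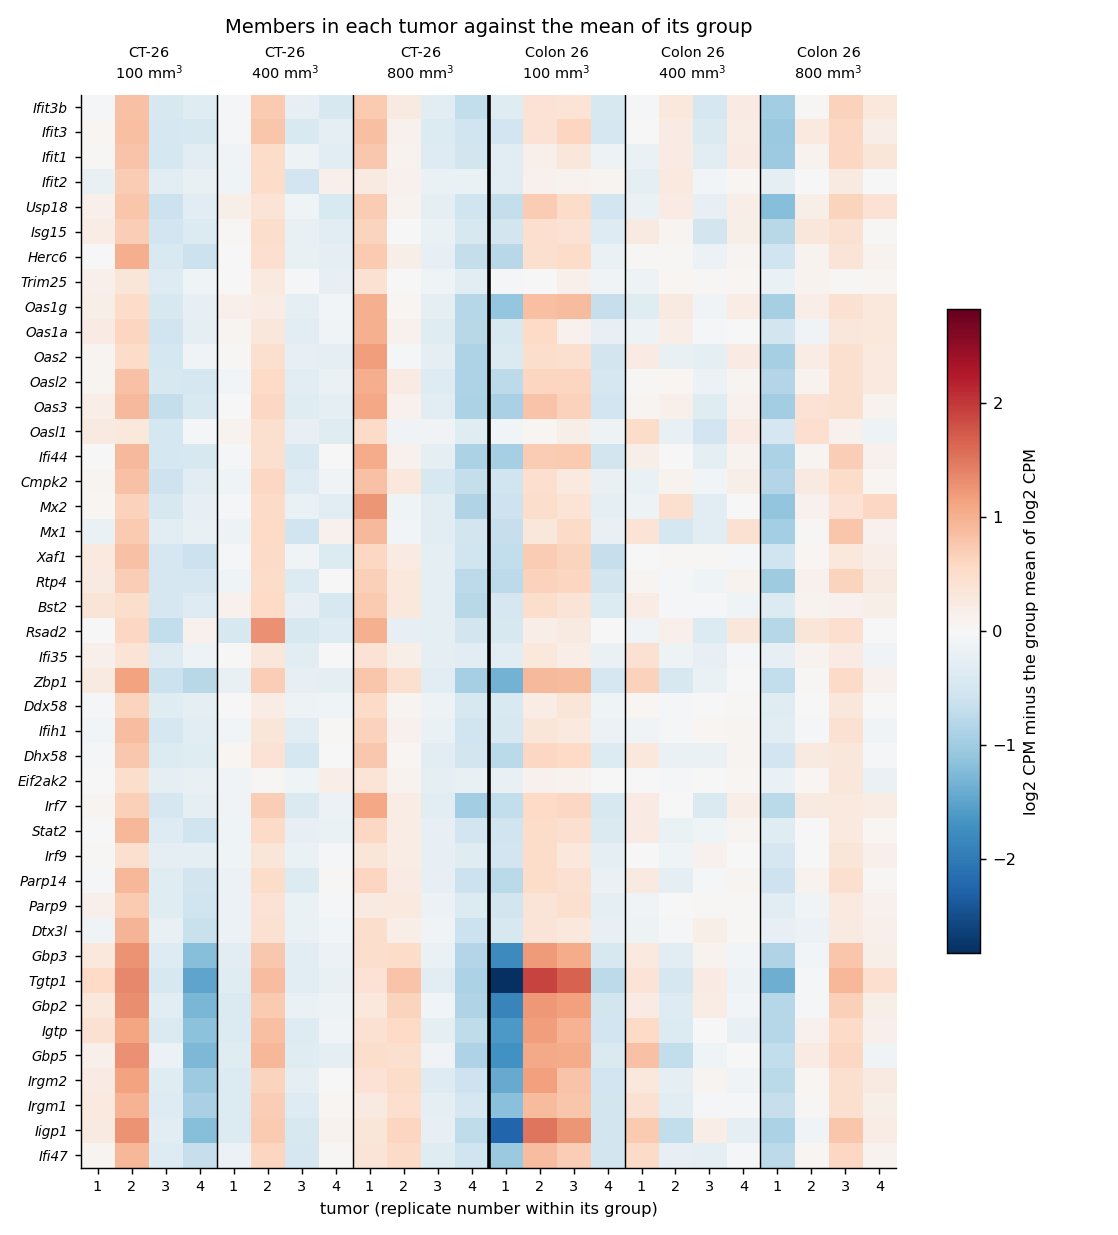
Heat map of the 43 members (y axis) in each tumor (x axis, by replicate number within model and size), colored by log2 CPM minus the mean log2 CPM of that group of 4. Columns tend to be of 1 color, with CT-26 tumor 100 replicate 2 highest for all 43 members and Colon 26 tumor 800 replicate 1 lowest for all 43.

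The remaining genes of the pathway were followed from a fixed list. Of 9 interferon ligands only Ifng, which encodes interferon gamma, passed the filter in tumors, and none did in cultures, where Ifng was at 0 counts in all 6 libraries. Ifng at 100 mm3 was 1.87, 4.64, 1.19 and 0.619 CPM in CT-26 and 0.0653, 1.299, 1.16 and 0.323 CPM in Colon 26, with overlap and no call (adjusted p 0.148). It was called lower in Colon 26 at 400 mm3 alone (-1.61 ± 0.58), which is not a test of a difference between sizes. None of the 5 receptor genes tested was called between the models in culture or at any size. Among the kinases and regulators, Socs1, an inhibitor of the kinases, was called higher in Colon 26 cultures (1.08 ± 0.10) and Irf5 lower (-2.56 ± 0.34). Irf1, a transcription factor that interferon gamma induces, was called lower at 100 mm3 alone (-1.13 ± 0.44). Of 10 genes of nucleic acid sensing upstream of interferon, 1 was called in tumors, the endosomal RNA receptor Tlr3 at 100 mm3 (-1.20 ± 0.25). From culture to tumors of 100 mm3, 6 of 10 sensing genes were called higher in CT-26 and 3 in Colon 26, beside 22.2% and 20.8% of all genes. The interaction of model and setting was called below 0 for 2 of these 10, beside 9.31% of all genes.

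Markers of the host cells were read beside these differences. At 100 mm3, 0 of 4 leukocyte markers were called between the models (Ptprc, which encodes CD45, -0.16 ± 0.34), and their summed level was 361.5 to 667.5 CPM in CT-26 and 454.7 to 612.3 CPM in Colon 26. None of 5 macrophage markers was called, with 834.9 to 1189.0 CPM in CT-26 and 1070.0 to 1220.0 CPM in Colon 26. None of 6 T cell markers was called at 100 mm3 (8.46 to 66.7 CPM against 4.12 to 26.8 CPM), 5 of 6 were lower in Colon 26 at 400 mm3 (13.2 to 61.3 CPM against 5.18 to 14.4 CPM) and none at 800 mm3. NK cell markers were called lower in 4 of 5 at 100 mm3 (12.96 to 55.9 CPM against 3.76 to 16.96 CPM), in 4 of 4 tested at 400 mm3 and in 3 of 5 at 800 mm3. Of 3 markers of plasmacytoid dendritic cells, strong makers of type I interferon, 2 were called higher in Colon 26 at 100 mm3 (1.39 to 2.58 CPM against 2.22 to 6.93 CPM) and none at the other sizes. Neutrophil markers were called lower in 0, 3 and 2 of 3 tested at 100, 400 and 800 mm3 (at 400 mm3, 15.2 to 52.9 CPM against 3.52 to 11.3 CPM). Of 4 dendritic cell markers, only Xcr1 was called, lower at 400 and 800 mm3. Fibroblast markers were called higher in 3, 3 and 2 of 4 and lower in 1 of 4 (Dcn) at each size, with 665.9 to 1031.0 CPM against 1376.0 to 1670.0 CPM at 100 mm3. The cultured lines hold RNA of this list too, at 74.3 to 81.5 CPM in CT-26 and 307.3 to 329.2 CPM in Colon 26. Of 3 tested in culture, 1 was called higher in Colon 26 and 1 lower, so this list does not mark host cells alone. None of 4 endothelial markers was called, and the B cell markers were too low to test. No marker of the first 5 lists was at 0 in all tumors of a group, whereas the neutrophil marker Ly6g was at 0 in every tumor of 100 mm3 and every Colon 26 tumor of 400 mm3. The part of these cells in the difference between the models was not tested.

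The relation of members to Ifng and to Ptprc was examined over the 12 tumors of each model, in 4 relations, on log2 CPM. Only Gbp2 was set against Ifng and only Isg15 against Ptprc. Whether either relation is particular to its pair was not examined. Gbp2 followed Ifng in CT-26 (r = 0.944, rho = 0.951, permutation p = 1e-05 for both, the smallest that 100000 resamples can give, adjusted 4e-05). In Colon 26 r was 0.933 (permutation p = 2e-05, adjusted 4e-05) and rho 0.902 (permutation p = 0.00015). With the mean of each size subtracted, r was 0.923 and 0.944. Without the 2 tumors farthest from the median of Ifng, r was 0.886 and 0.832 (permutation p = 0.00017 and 0.0029). Ifng rests on 2 to 140 counts per tumor, so its own level is imprecise. Isg15 and Ptprc gave r = 0.578 in CT-26 (permutation p = 0.0492, adjusted 0.0492) with rho = 0.329 (permutation p = 0.300), and r = 0.619 in Colon 26 (permutation p = 0.0321, adjusted 0.0429) with rho = 0.615 (permutation p = 0.0384, adjusted 0.0512). With the mean of each size subtracted, r was 0.616 in CT-26 (permutation, adjusted p = 0.0460) with rho = 0.552 (adjusted p = 0.0666), and r was 0.5855 in Colon 26 (permutation, adjusted p = 0.0465) with rho = 0.776 (adjusted p = 0.00633). Without the 2 tumors farthest from the median of Ptprc, r of the uncentered values was 0.323 and 0.283 (permutation p = 0.366 and 0.429). Leaving them out also narrows the range of Ptprc and the number of tumors. It therefore cannot tell whether the relation rests on those tumors.

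**Figure D5:**
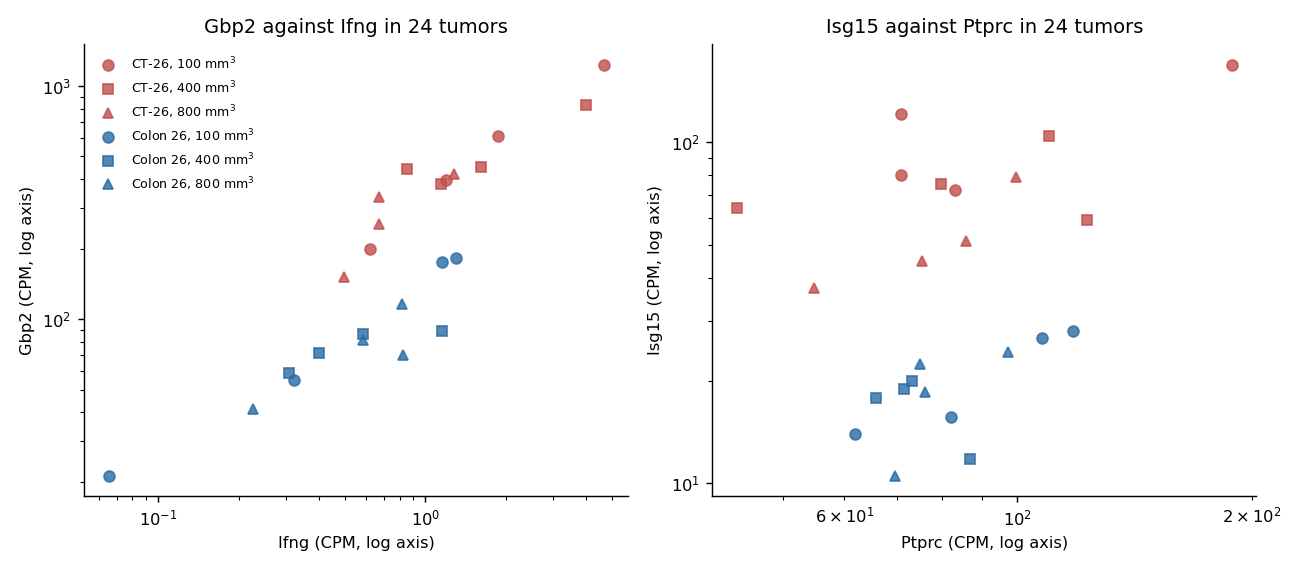
Left, Gbp2 against Ifng, and right, Isg15 against Ptprc, both in CPM on log axes, in 24 tumors with color for the model and shape for the size. Gbp2 and Ifng rise together within each model (r = 0.944 in CT-26 and 0.933 in Colon 26). Isg15 is higher in every CT-26 tumor than in any Colon 26 tumor, and the models were not compared at equal Ptprc.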

How the data were processed

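RNA of 30 libraries in 8 groups (3 per culture, 4 per tumor group) was analyzed. The authors counted the reads per gene with Array Studio on the annotation of Ensembl release 78 and deposited, for each gene, estimated counts (not normalized) and FPKM values (scaled to transcript length and library size). The aligner, genome build and treatment of strand are not given in the sources used here. The submitters' processing notes name DESeq2 1.24.0. Estimated counts above 0 were fractional in 22.6% of cases (tolerance 1e-06) and were rounded. Groups came from the labels, all libraries were assigned, and 0 columns of single libraries were left unused.

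Counts were tested with the edgeR 4.0.16 quasi-likelihood F test in R 4.3.3 (TMM, filterByExpr, Benjamini-Hochberg over all genes tested), on only the libraries of each comparison. The thresholds for a call, 0.1 for the adjusted p and 1 for the size of the log2 fold change, are those of the study's methods. The SE is the absolute log2 fold change over the root of F. DESeq2 1.42.0, other scalings, no filter, no minimum fold, all libraries in 1 fit and each library left out were alternatives. FPKM served only to compare levels between genes and in a check of the correlations. Correlations used log2 CPM (prior count 2) and 100000 resamples. On simulated counts 200 genes were changed, each by more than the fold required and at a level above the filter on low counts. The fit called 200 of them with 4 false calls of 14083 genes tested (cultures). It called 198 with 8 false calls of 15188 genes (tumors of 100 mm3). Recovery of changes near the fold required, or at low levels, was not simulated.

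The members and all lists were chosen with earlier results of these data known. Values in every library are given for 1 or 2 preset members of each role (17 genes) and for the 3 called members with the largest change in each direction of each comparison. The rest are summarised by role. Sequences and starts are from RefSeq (GRCm38.p6), and gene positions from the GENCODE annotation of GRCm38. Shared sequence was measured as the share of words of 100 bases of a gene's transcripts found in another gene's. Duplicate libraries were looked for, and replicate pairs differed by more than counting noise. Part of the fixed pathway list is not reported here. Whether groups overlapped was read on the CPM values scaled over all 30 libraries.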

Additional observations from a re-analysis of the deposited data

Results flagged for a closer look

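Single tumors stood far from the rest of their group in 7 of 102 sets of 4 values searched, with a gap to the nearest tumor, as a share of the group's range, above Dixon's 95% limit, which chance passes in about 1 of 20 groups. The shares were 0.876 for Mx1 in CT-26 tumor 100 replicate 2 (highest), and 0.95 for Rsad2, 0.97 for Zbp1 and 0.857 for Stat2 in CT-26 tumor 400 replicate 2 (highest). They were 0.8294 for Oas2, 0.873 for Bst2 and 0.933 for Irf7 in Colon 26 tumor 800 replicate 1 (lowest). These 3 tumors hold the highest or lowest level of at least 42 of the 43 members, so the flags are not independent of each other.

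The change from culture to tumors of 100 mm3 differed between the models, by an interaction test, in 35 members. Among the members given in every library, the log2 difference (Colon 26 minus CT-26) was -4.03 for Ifit1, -3.24 for Ifit3, -2.24 for Isg15, -1.92 for Usp18, -2.46 for Mx1, -3.59 for Rsad2 and -1.03 for Bst2. It was -3.41 for Zbp1, -1.78 for Ddx58, -2.01 for Irf7, -1.53 for Stat2, -2.31 for Parp14 and -1.83 for Irgm1. The largest were -4.60 for Cmpk2, -4.16 for Mx2 and -4.16 for Ifit3b. The call for Bst2 was lost with DESeq2, with RLE scaling and in the fit of all 30 libraries. The library number series of the cultures and the model cannot be told apart in this contrast.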

How the results depend on the processing

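No paired analysis was possible because the labels carry no replicate numbers. Of the 10 counts of called members, 55 of 60 values under other settings and 89 of 90 with 1 library left out stayed within 1.5 times the reported count. Without a minimum fold the count was 39 in cultures, 37 in tumors of 800 mm3 and 33 in Colon 26 tumors against cultures. For CT-26 tumors of 800 against 100 mm3, DESeq2 gave 1 and the fit of all 30 libraries 10, where 0 were reported. With 1 library left out, the interaction of model and size gave 0 to 1. Without the 2 tumors farthest from the median, Isg15 and Ptprc had r = 0.323 in CT-26 and 0.283 in Colon 26 (permutation, adjusted p = 0.429 for both), no longer past 0.05. No called value of a member changed direction under any of these settings. Among values of single members with 1 library left out, 48 lost their call, 53 gained one and 3769 stayed on their side, and under the other settings 8 lost it, 81 gained it and 2491 stayed. RLE or library-size scaling moved the median of all genes by less than 0.1 on the log2 scale in every comparison. Mx1, Gbp5, Iigp1 and Ifng rest on few counts in some libraries. With 3 or 4 libraries a group, the size of difference that can be called is limited. In culture the model cannot be told apart from the series of library numbers.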
